A study of Mus musculus with 8 samples.

Results

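The transforming growth factor beta (TGF-beta) and bone morphogenetic protein (BMP) family was measured in mouse liver as 47 named genes: ligands, their receptors and antagonists, the Smad proteins that carry the signal, and the Id genes that respond to it. A gene was counted when a probe on the array carried its name in the array files, and all 47 were found. The best-lit probe stood for each gene, and 44 of the 47 passed the filter on dim probes, out of 17354 genes tested. The livers came from males of C57Bl/6J, an inbred strain, at 14 weeks of age after a 4 h fast, and each of the 8 single-colour arrays held 1 sample. BD_HF mice (2 arrays) had dams kept on the standard breeder diet, and after weaning ate a high fat diet with 60% of its energy as fat. LF_HF mice (2 arrays) ate that high fat diet too, but their dams had been switched at embryonic day 10.5 to a defined diet with 12% of its energy as fat and enough vitamin A. VAD_VAD mice (2 arrays) had a low fat diet lacking vitamin A, with 12% of its energy as fat. Their dams were switched to it at embryonic day 10.5, and it was kept after weaning. LF_LF mice (2 arrays) had the low fat diet with 12% of its energy as fat and enough vitamin A, also from embryonic day 10.5 and after weaning. All groups were wild type and shared the strain, sex, age and fast. Whether each sample was its own animal is not stated in the labels, so a p-value here covers only the spread among the 8 samples, which may be technical.

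Ligands of this family are secreted as dimers, often bound to latency proteins, and bind pairs of type I and type II receptor kinases. TGF-beta and activin receptors act through Smad2 and Smad3, BMP receptors through Smad1 and its relatives, and both share Smad4. Smad6 and Smad7 inhibit the pathway, and Id1, Id2 and Id3 are classical BMP targets. In liver, TGF-beta is known for driving collagen production by stellate cells, the vitamin A storing cells that become matrix producers on injury, and BMP signalling is known for controlling the iron hormone hepcidin.

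Values are log2 processed signals minus the 75th percentile of the same array, so 0 is the signal of a probe at that percentile, and they are compared between groups for 1 probe and never between probes. A difference is between 2 group means on this log2 scale, with its standard error (SE), and is called at an adjusted p under 0.05 (limma, Benjamini-Hochberg over all 17354 genes). One array stood apart from the other 7. LF_HF replicate 1 had 82.2% of its probes well above background, where the others had 56.5% to 64.2%, it was the 1 array that its own quality report marked for evaluation, and 2707 of its gene spots were flagged as outliers, against 46 to 316. Replicates correlated at 0.988 in BD_HF, 0.917 in LF_HF, 0.977 in VAD_VAD and 0.992 in LF_LF over 16248 genes. Called differences that rest on LF_HF are given without that array too, as are the uncalled ones that moved most when it was left out. LF_HF is then 1 array with no spread of its own, and an adjusted p from that fit rests on the spread of the other groups. It can fall even where the difference shrinks, so passing in that fit is a description and adds no evidence. On it, 5 members (Bmp5, Bmp7, Bmp10, Ltbp1 and Acvrl1) had no value, so their LF_HF level is the other array alone. The summed signal of 6 hepatocyte markers lay 10.44 to 11.61 above the array's percentile in log2 units on all 8 arrays, as the tissue label states.

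The 5 members Bmp8b, Tgfb2, Gdf10, Ltbp2 and Fstl1 passed the test in at least 1 comparison, each through the single probe that the array holds for it. Their probes are 60 bases long, and the first 30 bases are shown here because every value of these genes rests on them. The positions are those of the file headers (mm9), and no annotation of that build was used here.
Bmp8b, chr4:122802506-122802565, + strand: cagctaatgaaaaaacctattgcggattta
Tgfb2, chr1:188447534-188447593, − strand: tcatccattatttccctgatttcattgaaa
Gdf10, chr14:34748161-34748220, + strand: ctacacgtgcttttatacatgcagtatgca
Ltbp2, chr12:86124173-86124232, − strand: tctaagaaatgcacttccatacaagctagc
Fstl1, chr16:37835593-37835652, + strand: agattttcctgcataggaaagtgtggaatg

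The 250 bases upstream of the start of the same genes are shown because these members were called. The genes were picked by their calls against the same LF_LF arrays, and whether they share any control was not tested. The sequences come from RefSeq (GRCm38.p6), which gave such a sequence for 34 of the 47 members. Capitals mark CAGAC on either strand, which in the printed strand can read as its reverse complement GTCTG, the core of a Smad-binding element. This motif occurs in 42.2% of all 32851 upstream sequences of the same length.
Bmp8b, chr4:123104911-123105160, + strand: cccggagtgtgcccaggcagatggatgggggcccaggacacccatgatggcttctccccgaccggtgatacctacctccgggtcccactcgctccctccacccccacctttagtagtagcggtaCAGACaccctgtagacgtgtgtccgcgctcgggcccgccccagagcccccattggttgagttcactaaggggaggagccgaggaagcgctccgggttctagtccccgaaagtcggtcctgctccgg
Tgfb2, chr1:186705990-186706239, − strand: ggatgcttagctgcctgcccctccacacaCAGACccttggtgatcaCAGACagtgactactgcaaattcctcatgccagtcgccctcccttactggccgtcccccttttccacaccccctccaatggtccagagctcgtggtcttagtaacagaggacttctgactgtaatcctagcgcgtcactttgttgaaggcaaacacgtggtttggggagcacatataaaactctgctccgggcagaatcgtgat
Gdf10, chr14:33923337-33923586, + strand: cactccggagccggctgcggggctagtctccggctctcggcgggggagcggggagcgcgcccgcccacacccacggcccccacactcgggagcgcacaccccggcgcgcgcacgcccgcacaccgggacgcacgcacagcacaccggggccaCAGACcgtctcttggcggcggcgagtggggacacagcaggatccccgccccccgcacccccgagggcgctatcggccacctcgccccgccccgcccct
Ltbp2, chr12:84876492-84876741, − strand: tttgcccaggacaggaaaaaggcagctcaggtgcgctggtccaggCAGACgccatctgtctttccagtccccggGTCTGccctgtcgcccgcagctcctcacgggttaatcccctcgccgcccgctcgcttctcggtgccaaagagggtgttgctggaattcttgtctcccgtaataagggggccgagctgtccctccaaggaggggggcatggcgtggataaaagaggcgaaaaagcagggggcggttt
Fstl1, chr16:37776805-37777054, + strand: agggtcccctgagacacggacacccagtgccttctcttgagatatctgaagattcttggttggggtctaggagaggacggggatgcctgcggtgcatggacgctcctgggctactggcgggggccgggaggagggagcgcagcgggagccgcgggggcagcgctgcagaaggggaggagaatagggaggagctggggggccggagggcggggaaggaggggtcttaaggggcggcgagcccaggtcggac
Tgfb2 and Ltbp2 held 2 matches each, Bmp8b and Gdf10 held 1 each, and Fstl1 held none in this window. Over the 34 members with a sequence, 19 held at least 1. Neither GGCGCC, the core of a GC-rich BMP Smad element (in 9.59% of all sequences), nor AGGTCA on either strand, the core half-site of retinoid and other nuclear receptors (in 14% of all sequences), occurred in these 5 windows. A match of letters is a description of the window and no evidence of binding.

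All calls among the members were against LF_LF, and all were lower in the other group. In LF_HF minus LF_LF, which asks what the diet after weaning changes, 4 of 44 members were called lower, against 1.87% of all genes, and 0 higher, against 0.617%. In VAD_VAD minus LF_LF, which asks what vitamin A deficiency changes on a low fat diet, 1 member was called lower, against 0.478% of all genes, and 0 higher, against 0.0922%. BD_HF minus LF_LF, in which the dams' diet and the diet after weaning both differ, had 3 members called lower, against 1.05% of all genes, and 0 higher, against 0.455%. In BD_HF minus LF_HF, where the dams' diet differs, 0 members were called by limma, against 0.00576% of all genes, and 4 had an unadjusted p under 0.05, as did 5.45% of all genes. The 3 comparisons against LF_LF share its 2 arrays, so their calls are not separate evidence. Bmp8b is counted as lower in each of them and is the only member called in VAD_VAD minus LF_LF. It passed the filter on dim probes through LF_LF alone and had to be higher there, so its part in these counts is no result. With a filter that asks for a signal well above background on all 8 arrays, which leaves Bmp8b out, 5, 3 and 4 members were called in LF_HF, VAD_VAD and BD_HF minus LF_LF. Calls over all genes rose too under that filter. Genes higher and lower were 163 and 440, 47 and 112, and 117 and 202 in the same order. In the main fit they were 107 and 325, 16 and 83, and 79 and 183. The rise is therefore not particular to the members.

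**Figure D1:**
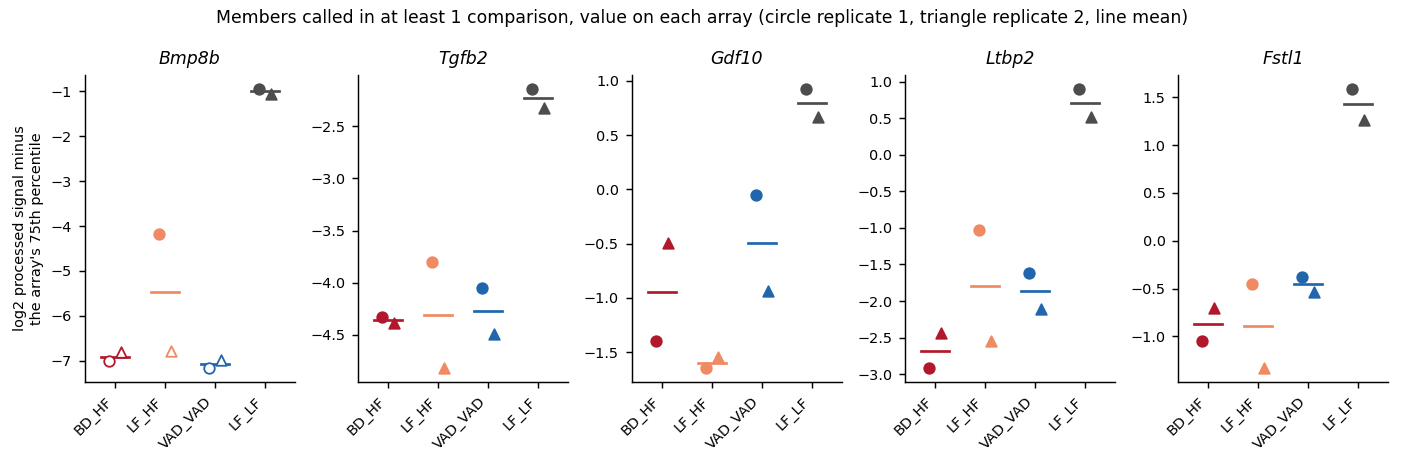
Log2 processed signal minus the array's 75th percentile for the 5 members called in at least 1 comparison, by diet group, with a circle for replicate 1, a triangle for replicate 2 and a line for the mean of 2 arrays. Open symbols are arrays on which the probe was not well above background, and both LF_LF arrays lie above the other 6 in all 5 panels.

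Bmp8b, a BMP ligand studied in germ cells and in brown fat, had the largest difference of any member in each comparison against LF_LF. Its probe read −7.01 and −6.81 on the BD_HF arrays, −4.17 and −6.78 on the LF_HF arrays and −7.17 and −6.99 on the VAD_VAD arrays, against −0.94 and −1.07 on the LF_LF arrays. Only the LF_LF arrays and LF_HF replicate 1 were well above background, so the probe gave a clear signal in 1 group. Bmp8b therefore passed the filter on dim probes through LF_LF alone, had to be higher there, and its calls are a description of that. Bmp8b was at least 16-fold lower in BD_HF than in LF_LF and at least 17.4-fold lower in VAD_VAD than in LF_LF. The adjusted p-values of these calls, 0.0175 and 0.0264, belong to the measured differences of −5.91 and −6.08. They do not test the bounds. In LF_HF minus LF_LF the measured log2 difference was −4.47 (SE 0.737, adjusted p = 0.0316), a value that is not exact because 1 of the 2 LF_HF arrays was not above background. With LF_HF replicate 1 left out, the remaining LF_HF array was not above background, and Bmp8b was at least 14.6-fold lower there than in LF_LF. The bound takes the lowest signal that was well above background on the dim arrays. Bmp8a, its close paralog, did not pass the filter on dim probes, and its probe was not well above background on either LF_LF array; whether the 2 paralogs share signal on the Bmp8b probe was not tested. In bulk liver RNA, fewer cells of a type and less RNA per cell cannot be told apart.

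Gdf10, also known as BMP3b, is a ligand that can oppose BMP signalling. It read −1.40 and −0.50 in BD_HF, −1.65 and −1.54 in LF_HF and −0.05 and −0.93 in VAD_VAD, against 0.93 and 0.66 in LF_LF. Both LF_LF arrays were above all others, and the lowest pair was LF_HF. The fall of 2.40 in LF_HF minus LF_LF (SE 0.438, adjusted p = 0.0401) corresponds to differences of −2.58 within slide 1 and −2.21 within slide 2, and with the slide as a block it missed the threshold (adjusted p = 0.0553). The difference was −2.34 without LF_HF replicate 1 (adjusted p = 0.0345). The differences of −1.29 in VAD_VAD minus LF_LF and −1.74 in BD_HF minus LF_LF were not called (adjusted p = 0.347 and 0.136).

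Gdf15, a stress hormone that acts on the brain to reduce food intake, did not pass in any comparison. It read −0.97 and −0.02 in BD_HF, 0.39 and 0.41 in LF_HF and 0.46 and 0.03 in VAD_VAD, against 1.499 and 1.694 in LF_LF. The LF_LF pair was again the highest, by a margin over the spread within any group. The difference was −2.09 in BD_HF minus LF_LF (SE 0.396, adjusted p = 0.0565) and −1.35 in VAD_VAD minus LF_LF (SE 0.396, adjusted p = 0.258). Leaving out LF_HF replicate 1, which is in none of these groups but enters the shared spread, changed neither difference.

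The other 7 measured BMP and GDF ligands were not called. Bmp2 and Bmp6, ligands that endothelial cells of the sinusoid supply to hepatocytes for iron sensing, had mean values of −0.15 ± 0.11 and −2.21 ± 0.25 in BD_HF and −0.66 ± 1.08 and −2.71 ± 1.39 in LF_HF (SD, n = 2 each). In VAD_VAD they averaged −0.58 ± 0.94 and −2.17 ± 0.42, against −0.54 ± 0.04 and −1.99 ± 0.46 in LF_LF (SD, n = 2 each). The group means of both lay within the spread of the LF_HF replicates. With LF_HF replicate 1 left out, Bmp2 differed by −0.88 and Bmp6 by −1.70 in LF_HF minus LF_LF, against −0.12 and −0.72 with it. Gdf2, the circulating ligand BMP9 that the liver itself makes, averaged 1.51 ± 0.49 in BD_HF, 1.07 ± 0.18 in LF_HF and 1.98 ± 0.31 in VAD_VAD, against 1.77 ± 0.23 in LF_LF (SD, n = 2 each). Bmp10, its closest relative, ran the other way from the called ligands: it averaged −2.01 ± 0.36 in BD_HF and −2.24 ± 0.08 in VAD_VAD, against −3.24 ± 0.03 in LF_LF (SD, n = 2 each). The difference of Bmp10 was 1.23 in BD_HF minus LF_LF (adjusted p = 0.184), and 1.00 in VAD_VAD minus LF_LF (adjusted p = 0.369). From its 1 LF_HF array it was 1.26 in LF_HF minus LF_LF (adjusted p = 0.206). Bmp10 had no value on LF_HF replicate 1, so leaving that array out of the fit changed none of these differences. Bmp4 differed by 0.99 in LF_HF minus LF_LF (adjusted p = 0.458), with 0.12 on LF_HF replicate 1 and −1.80 on replicate 2, and by 0.03 without replicate 1. Bmp5 and Bmp7 differed by −0.92 and 1.20 in the same comparison, from 1 LF_HF array (adjusted p = 0.345 and 0.294).

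Among the TGF-beta ligands, Tgfb2 was the member called. Tgfb2 read −4.33 and −4.39 in BD_HF, −3.80 and −4.82 in LF_HF and −4.05 and −4.49 in VAD_VAD, against −2.14 and −2.33 in LF_LF. The 3 other groups overlapped each other and lay about as far below LF_LF. Tgfb2 fell by 2.07 in LF_HF minus LF_LF (SE 0.408, adjusted p = 0.0493, 4.21-fold), and by 2.59 without LF_HF replicate 1. The probe was well above background on all 8 arrays. LF_HF replicate 2, at −4.82, lay close to −4.868, the lowest such signal of any probe on that array. The size of both falls is therefore approximate, and the second rests on that array alone. In BD_HF minus LF_LF the difference was −2.12 (SE 0.408, adjusted p = 0.0593), which passed with the slide as a block (adjusted p = 0.049). In VAD_VAD minus LF_LF it was −2.03 (SE 0.408, adjusted p = 0.1).

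Tgfb3 had the same order of groups without a call. It read −1.40 and −1.39 in BD_HF, −0.63 and −1.88 in LF_HF and −0.32 and −1.25 in VAD_VAD, against 0.48 and 0.42 in LF_LF. The differences were −1.71 in LF_HF minus LF_LF (adjusted p = 0.146), −1.23 in VAD_VAD minus LF_LF (adjusted p = 0.449) and −1.84 in BD_HF minus LF_LF (adjusted p = 0.158). With LF_HF replicate 1 left out, the difference of Tgfb3 in LF_HF minus LF_LF was −2.33. Tgfb1, the isoform most studied in liver fibrosis, averaged −1.07 ± 0.48 in BD_HF, −1.16 ± 0.75 in LF_HF and −1.10 ± 0.01 in VAD_VAD, against −0.45 ± 0.41 in LF_LF (SD, n = 2 each), and its groups overlapped. Its difference in LF_HF minus LF_LF was −0.71, or −1.24 without LF_HF replicate 1 (adjusted p = 0.111). The 3 TGF-beta ligands differed from LF_LF by a median of −1.71 in LF_HF, −1.23 in VAD_VAD and −1.84 in BD_HF, against −0.02, 0.09 and 0.11 for all genes tested. With normexp background correction these medians were −0.52, −0.62 and −0.57.

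Ltbp2 belongs to the family of latent TGF-beta binding proteins and is a component of elastic microfibrils; it is not thought to bind TGF-beta itself. It read −2.92 and −2.44 in BD_HF, −1.03 and −2.55 in LF_HF and −1.62 and −2.10 in VAD_VAD, against 0.90 and 0.52 in LF_LF. LF_LF was above all 6 other arrays, and the highest of those 6 was LF_HF replicate 1. Ltbp2 fell by 3.39 in BD_HF minus LF_LF (SE 0.527, adjusted p = 0.0324, 10.5-fold). Its differences from LF_LF, −2.50 in LF_HF and −2.57 in VAD_VAD, had the same SE and were not called (adjusted p = 0.0606 and 0.108). Once LF_HF replicate 1 was left out, the LF_HF difference was −3.26 and the VAD_VAD difference was unchanged.

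Ltbp1, which does hold latent TGF-beta in the matrix, was not called, and its probes did not give 1 picture. The brighter probe differed by 0.52, 0.21 and 0.35 in LF_HF, VAD_VAD and BD_HF minus LF_LF, and the dimmer one by −1.11, −1.84 and −2.36 in the same order. This pair was singled out after its values were seen. Bmp1, the protease that cleaves procollagen and frees BMP ligands from chordin, averaged 3.36 ± 0.30 in BD_HF, 2.81 ± 0.91 in LF_HF and 3.51 ± 0.43 in VAD_VAD, against 2.75 ± 0.12 in LF_LF (SD, n = 2 each), with no call.

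**Figure D2:**
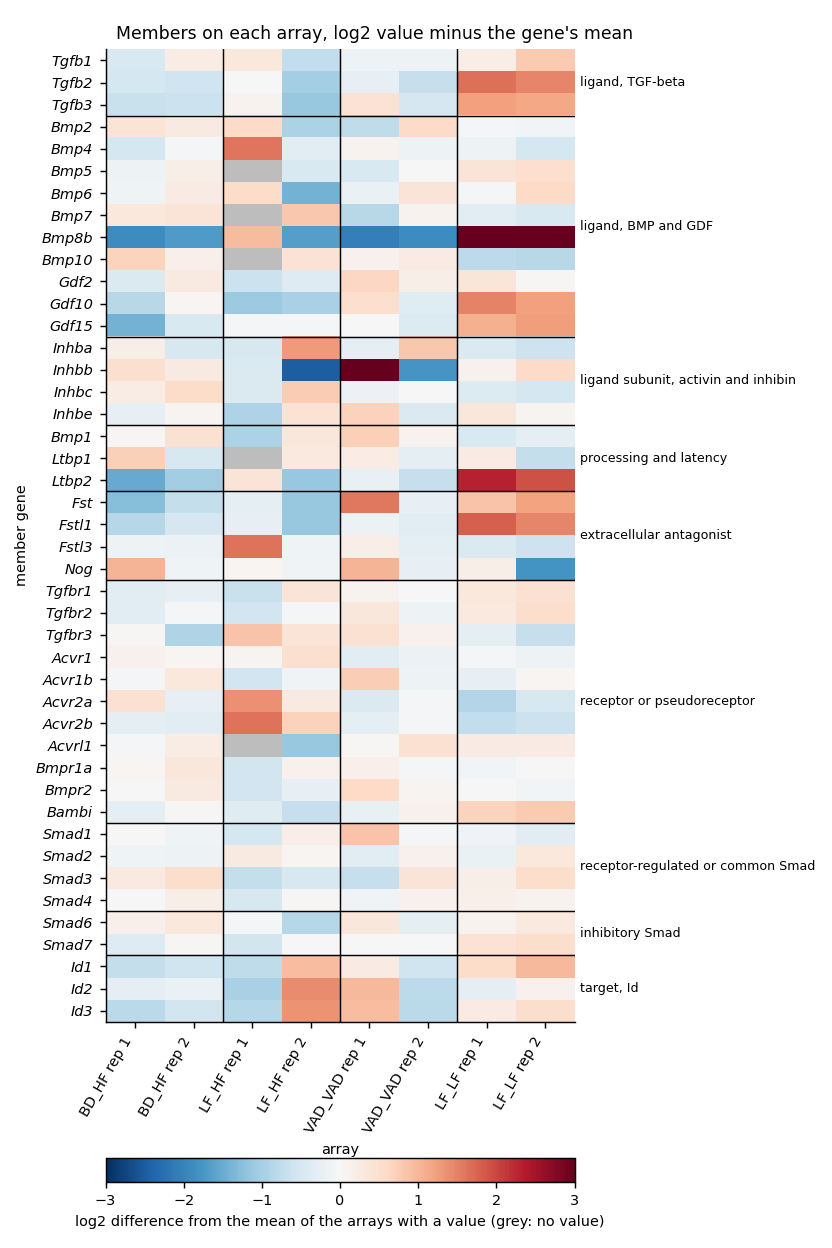
Log2 value of each of the 44 measured members (rows, grouped by role) on each of the 8 arrays (columns, by diet group), minus the gene's own mean over arrays. The colour scale ends at −3 and 3, grey marks a missing value, and the LF_LF columns are the reddest for Bmp8b, Tgfb2, Gdf10, Ltbp2 and Fstl1.

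The extracellular antagonists held 1 called gene, Fstl1, a follistatin-like glycoprotein secreted by mesenchymal cells that has been reported to bind BMP4. Fstl1 read −1.04 and −0.70 in BD_HF, −0.45 and −1.33 in LF_HF and −0.38 and −0.53 in VAD_VAD, against 1.59 and 1.26 in LF_LF. No array of another group came within 1 log2 unit of the LF_LF pair. Fstl1 fell by 2.32 in LF_HF minus LF_LF (SE 0.386, adjusted p = 0.0325, 4.99-fold) and by 2.30 in BD_HF minus LF_LF (SE 0.386, adjusted p = 0.0401, 4.92-fold). In VAD_VAD minus LF_LF the difference was −1.88 (SE 0.386, adjusted p = 0.108). Leaving out LF_HF replicate 1, the difference was −2.76 in LF_HF minus LF_LF, and those of BD_HF (−2.30) and VAD_VAD (−1.88) were unchanged.

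Follistatin itself, Fst, which captures activins, averaged −1.46 ± 0.39 in BD_HF, −1.16 ± 0.61 in LF_HF and 0.21 ± 1.29 in VAD_VAD, against 0.57 ± 0.26 in LF_LF (SD, n = 2 each). Its differences of −2.03 in BD_HF minus LF_LF and −1.73 in LF_HF minus LF_LF were not called (adjusted p = 0.211 and 0.227), and the second was −2.17 without LF_HF replicate 1 (adjusted p = 0.119). Its VAD_VAD arrays read 1.12 and −0.71, on either side of the LF_LF pair. Fstl3, another activin binder, differed by 1.27 in LF_HF minus LF_LF (adjusted p = 0.307), with 0.32 on LF_HF replicate 1 and −1.43 on replicate 2, and by 0.40 without replicate 1 (adjusted p = 0.491). Noggin, Nog, a BMP antagonist, read 1.11 and −0.87 within LF_LF, a gap wider than any difference between its group means, and was not called. Gremlin 1, Grem1, did not pass the filter and was not well above background on any of the 8 arrays.

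The activin and inhibin subunits had no call. Inhbc and Inhbe, subunits made mainly in liver, averaged 2.60 ± 0.24 and 3.52 ± 0.22 in BD_HF and 2.38 ± 0.85 and 3.36 ± 0.95 in LF_HF (SD, n = 2 each). In VAD_VAD they averaged 2.14 ± 0.12 and 3.73 ± 0.80, against 1.75 ± 0.08 and 3.81 ± 0.19 in LF_LF (SD, n = 2 each). Inhba differed by 0.36 to 0.92 from LF_LF in the 3 comparisons with it, and by 1.80 in LF_HF minus LF_LF without LF_HF replicate 1 (adjusted p = 0.0761). In the same fit Inhbc differed by 1.24, against 0.63 with that array (adjusted p = 0.513). Inhbb, a subunit of activin B, had the widest replicates of any member: it read −0.81 and −1.02 in BD_HF, −1.75 and −3.79 in LF_HF and 1.91 and −3.07 in VAD_VAD, against −1.17 and −0.73 in LF_LF. The 2 VAD_VAD arrays were the highest and the second lowest of the 8, so their mean describes neither. Inhbb led BD_HF minus LF_HF with a difference of 1.85 (SE 1.43, adjusted p = 0.785), or 2.87 without LF_HF replicate 1. Its second kept probe, without a value on that array, differed by 0.64 in BD_HF minus LF_HF. Inha, the inhibin alpha subunit, had 2 probes and neither passed the filter.

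None of the 11 receptors and pseudoreceptors was called in any comparison. Acvr2b, a type II receptor for activins and some BMPs, read −2.18 and −2.18 in BD_HF, −0.24 and −1.19 in LF_HF and −2.13 and −1.94 in VAD_VAD, against −2.61 and −2.51 in LF_LF. Both LF_HF arrays were the highest of the 8. Its difference was 1.85 in LF_HF minus LF_LF (SE 0.38, adjusted p = 0.0564) and −1.46 in BD_HF minus LF_HF (SE 0.38, adjusted p = 0.785). These shrank to 1.37 and −0.99 without LF_HF replicate 1.

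Acvr2a, its paralog, and Tgfbr3, the co-receptor betaglycan, differed by 1.504 and 1.105 in LF_HF minus LF_LF (adjusted p = 0.169 and 0.245), and by 0.95 and 0.88 without LF_HF replicate 1. A second kept probe of Acvr2a, well above background on all 8 arrays, differed by 0.17 in LF_HF minus LF_LF. Tgfbr3 read −3.64 and −4.58 in BD_HF, −2.82 and −3.28 in LF_HF and −3.23 and −3.55 in VAD_VAD, against −3.96 and −4.36 in LF_LF, and it differed by −1.06 in BD_HF minus LF_HF (SE 0.416, adjusted p = 0.785). Acvrl1, the endothelial receptor ALK1 for BMP9 and BMP10, read −3.47 and −3.20 in BD_HF, −4.57 on the 1 LF_HF array with a value and −3.39 and −2.96 in VAD_VAD, against −3.19 and −3.18 in LF_LF. The single LF_HF value was the lowest, and the difference was 1.24 in BD_HF minus LF_HF (SE 0.411, adjusted p = 0.785). Bambi, a decoy receptor without a kinase, was highest on the LF_LF arrays, at 0.67 and 0.78, against −0.69 to 0.13 on the other 6. Its difference was −1.26 in LF_HF minus LF_LF (adjusted p = 0.107), or −1.42 without LF_HF replicate 1.

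Neither TGF-beta receptor kinase was called. Tgfbr1 averaged 0.35 ± 0.08 in BD_HF, 0.50 ± 0.74 in LF_HF and 0.69 ± 0.08 in VAD_VAD, against 1.04 ± 0.10 in LF_LF (SD, n = 2 each). Tgfbr2 averaged 2.14 ± 0.19 in BD_HF, 2.00 ± 0.36 in LF_HF and 2.40 ± 0.35 in VAD_VAD, against 2.73 ± 0.16 in LF_LF (SD, n = 2 each). In LF_HF minus LF_LF, Tgfbr1 differed by −0.54, or by −0.02 without LF_HF replicate 1, and its second kept probe differed by 0.03. For the BMP and activin kinases Acvr1, Acvr1b, Bmpr1a and Bmpr2, the differences of the brightest probe over all 4 comparisons lay between −0.36 and 0.53. Dimmer kept probes of Acvr1b, Bmpr1a and Tgfbr2 differed by 1.227, 1.533 and 2.048 in LF_HF minus LF_LF. In BD_HF minus LF_HF they differed by −1.327, −1.822 and −2.227. Each of these probes was highest on LF_HF replicate 1, at −1.705, −1.517 and −1.093.

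No Smad was called. The receptor-regulated and common Smads differed by −0.21 to 0.16 in BD_HF minus LF_LF and by −0.50 to 0.61 in VAD_VAD minus LF_LF. In LF_HF minus LF_LF they differed by −0.96, for Smad3, to 0.11, for Smad2 (adjusted p = 0.314 and 0.913). Smad1, the BMP arm, averaged 3.35 ± 0.09 in BD_HF, 3.24 ± 0.51 in LF_HF and 3.80 ± 0.62 in VAD_VAD, against 3.19 ± 0.15 in LF_LF (SD, n = 2 each). Smad3, the TGF-beta arm, averaged −1.28 ± 0.19 in BD_HF, −2.28 ± 0.17 in LF_HF and −1.83 ± 0.77 in VAD_VAD, against −1.33 ± 0.25 in LF_LF (SD, n = 2 each). Its difference was 1.00 in BD_HF minus LF_HF (adjusted p = 0.785). Smad7, an inhibitor that TGF-beta itself induces, read −1.76 and −1.34 in BD_HF, −1.93 and −1.39 in LF_HF and −1.40 and −1.39 in VAD_VAD, against −0.95 and −0.84 in LF_LF. LF_LF was the highest pair, and the differences of −0.77 in LF_HF, −0.50 in VAD_VAD and −0.66 in BD_HF were not called (adjusted p = 0.311, 0.69 and 0.495). Smad6 differed by −0.66, −0.17 and 0.05 in the same order, and by 0.71 in BD_HF minus LF_HF (adjusted p = 0.785). Without LF_HF replicate 1, its differences were −1.06 in LF_HF minus LF_LF (adjusted p = 0.114) and 1.10 in BD_HF minus LF_HF (adjusted p = 0.382), and that of Smad7 in LF_HF minus LF_LF was −0.49 (adjusted p = 0.365).

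The Id genes showed that replicates of the same diet can lie far apart. Id1 read −1.18 and −1.08 in BD_HF, −1.24 and 0.46 in LF_HF and −0.23 and −1.08 in VAD_VAD, against 0.07 and 0.50 in LF_LF. Id3 read 2.47 and 2.74 in BD_HF, 2.43 and 4.62 in LF_HF and 4.20 and 2.46 in VAD_VAD, against 3.52 and 3.80 in LF_LF. In LF_HF replicate 2 was the high array for Id1, Id2 and Id3, in VAD_VAD replicate 1 was, and the BD_HF and LF_LF pairs were close. Id2 read 4.04 and 6.42 in LF_HF, a gap wider than any difference between its group means. The Id differences in BD_HF minus LF_LF were −1.41 for Id1, −0.15 for Id2 and −1.06 for Id3 (adjusted p = 0.37, 0.968 and 0.684). The median of the 3 in BD_HF minus LF_HF was −0.74. It was −1.64 without LF_HF replicate 1 and 0.11 with each array centred on its median, with 0 called in either. The 3 Id differences in LF_HF minus LF_LF had a median of −0.13, or 0.96 without that array.

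**Figure D3:**
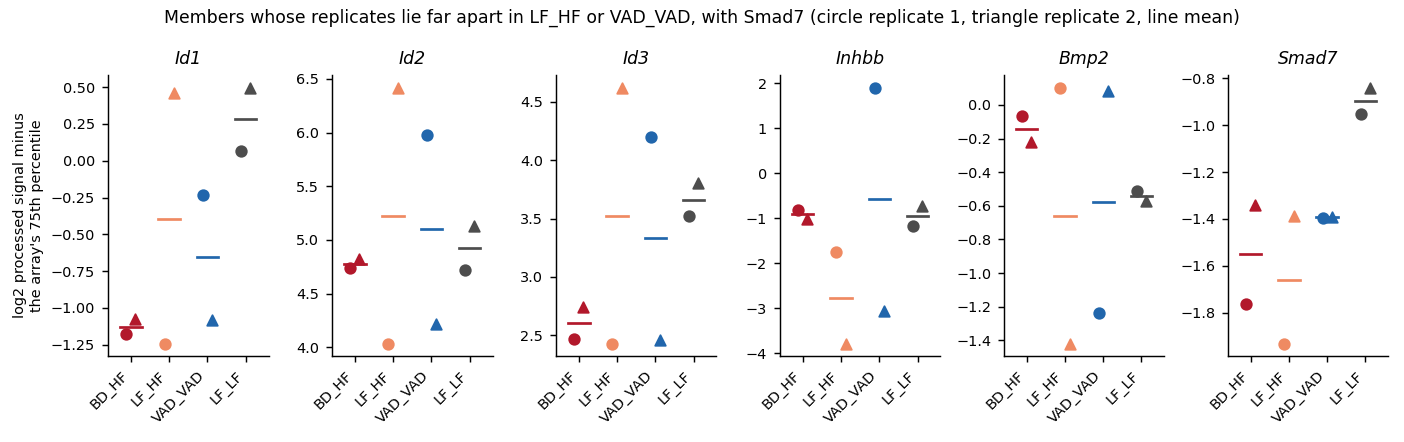
Log2 processed signal minus the array's 75th percentile for Id1, Id2, Id3, Inhbb, Bmp2 and Smad7, by diet group, with a circle for replicate 1, a triangle for replicate 2 and a line for the mean of 2 arrays. In Id3 the LF_HF arrays read 2.43 and 4.62 and the VAD_VAD arrays 4.20 and 2.46, while the Smad7 LF_LF pair lies above all other arrays.

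Taken over the members, LF_LF had the highest mean of the 4 groups for 19 of 44 (43.2%), against 24.4% of all genes. Both LF_LF arrays lay above the other 6 for 9 of the 39 members with every value (Bmp8b, Gdf10, Gdf15, Tgfb2, Tgfb3, Ltbp2, Fstl1, Bambi and Smad7), against 9.48% of all genes. They lay below for 3 (Acvr2a, Acvr2b and Fstl3), against 9.27% of all genes. For Acvr2a this holds for the brighter probe only. On its second kept probe LF_LF read −2.82 and −2.81, above LF_HF replicate 1 at −3.195. Without LF_HF replicate 1, the LF_LF arrays lay above the other 5 for 10 of 44 members, against 15.4% of all genes, and below for 6, against 18.9%. Bmp8b is among the 19, the 9 and the 10. It passed the filter on dim probes through LF_LF alone and had to be higher there, so its part in these counts is no result. The median member differed by −0.41 in LF_HF minus LF_LF, −0.10 in VAD_VAD minus LF_LF and −0.09 in BD_HF minus LF_LF. The first median was, without LF_HF replicate 1, −0.06, against 0.12 for all genes, so the lower median in that comparison was larger with that array.

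**Figure D4:**
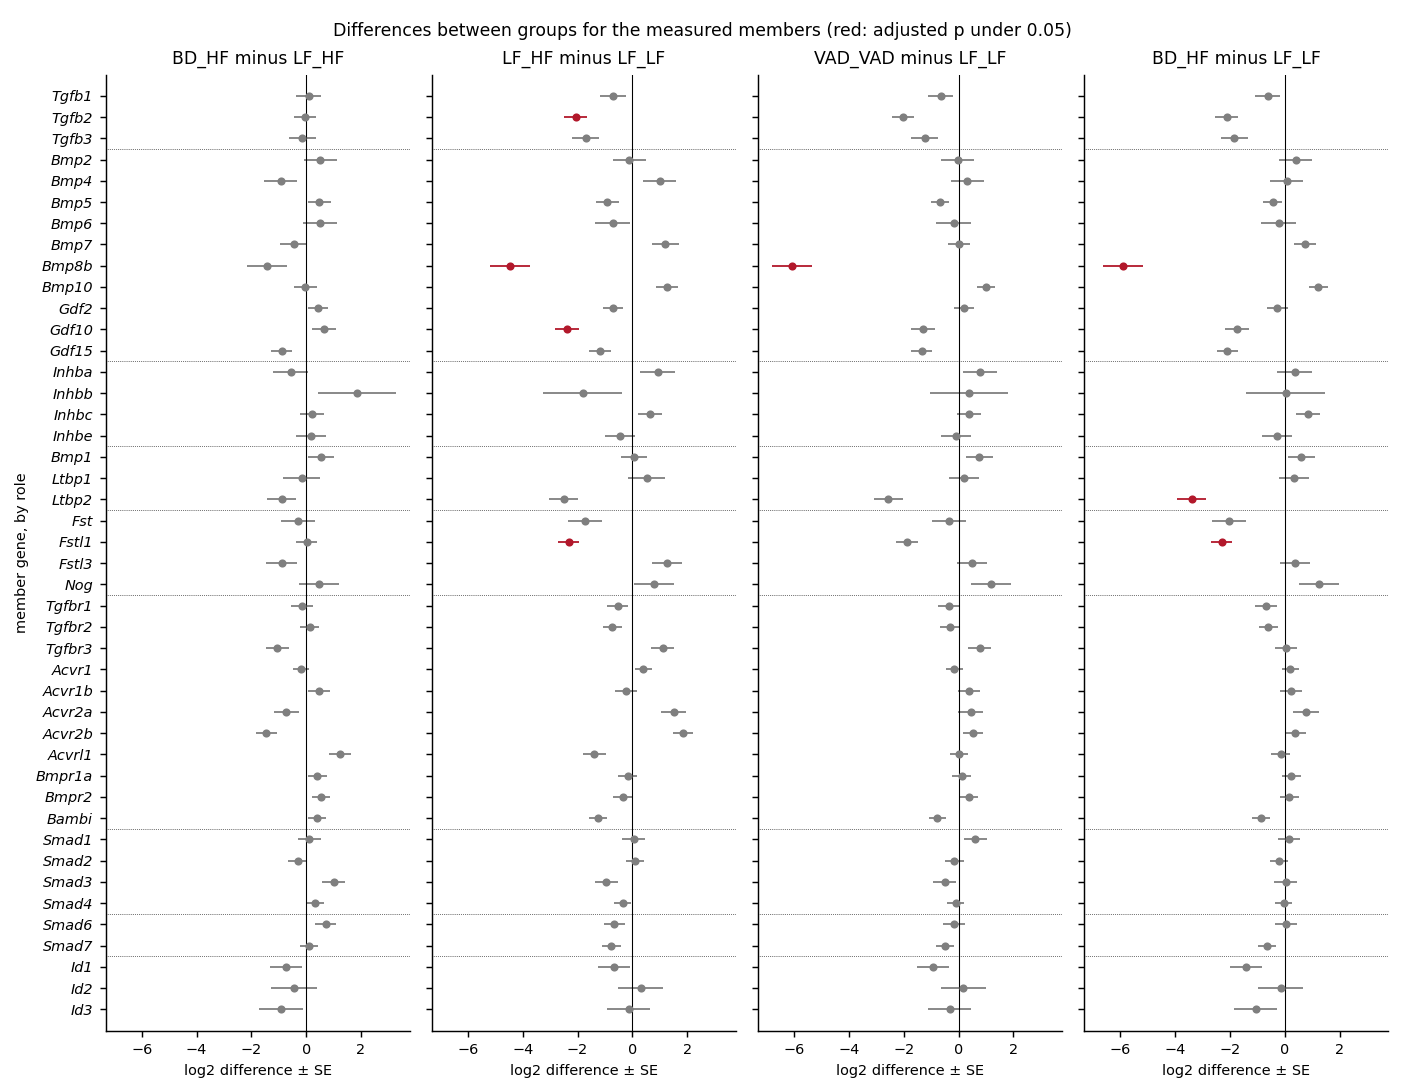
Difference of each of the 44 measured members (rows, by role) in the 4 comparisons, on the log2 scale with its SE, and in red where the adjusted p is under 0.05. The red points are Bmp8b in all 3 comparisons against LF_LF, Fstl1 in LF_HF and BD_HF minus LF_LF, Tgfb2 and Gdf10 in LF_HF minus LF_LF, and Ltbp2 in BD_HF minus LF_LF.

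The calls depended on which arrays entered the fit. Each fit without 1 array leaves a single array in its group, which is then assumed to vary like the others. Leaving out any 1 array of BD_HF or LF_LF left no member called in any comparison. Leaving out either VAD_VAD array left only Bmp8b called, in BD_HF minus LF_LF. Calls over all genes fell too in each comparison against LF_LF, so the loss is not particular to the members. Without LF_HF replicate 1, 12 members were called in LF_HF minus LF_LF, against 11.0% of all genes, 4 in VAD_VAD minus LF_LF, against 5.31%, and 7 in BD_HF minus LF_LF, against 9.14%. Of the 12, Tgfb2, Tgfb3, Bmp6, Bmp8b, Gdf10, Ltbp2, Fstl1, Acvrl1 and Bambi were lower in LF_HF, and Bmp10, Inhbc and Acvr2b were higher.

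Genes that TGF-beta is known to induce gave the largest called differences of the pathway lists. Of 18 such genes measured, 4 fell in LF_HF minus LF_LF (Col1a1, Col1a2, Col3a1 and Ccn2), 2 fell in VAD_VAD minus LF_LF (Col1a1 and Col3a1) and 4 fell in BD_HF minus LF_LF (Col1a1, Col1a2, Col3a1 and Ccn2), and 0 rose. Of all genes, 1.87%, 0.478% and 1.05% were called lower in the same order. The list's median difference was −1.5 in LF_HF, −0.87 in VAD_VAD and −1.67 in BD_HF, against −0.02, 0.09 and 0.11 for all genes. With normexp background correction the list's medians were −1.03, −0.4 and −0.77. Col1a1, a chain of type I collagen, read −1.34 and −0.59 in BD_HF, −1.53 and −1.71 in LF_HF and −0.41 and −1.11 in VAD_VAD, against 3.23 and 2.87 in LF_LF. It fell in all 3 comparisons with LF_LF, with differences of −4.67 in LF_HF (SE 0.401, adjusted p = 0.00478), −3.81 in VAD_VAD (adjusted p = 0.017) and −4.01 in BD_HF (adjusted p = 0.00872). Col3a1 fell by 3.55, 3.15 and 3.34 in the same order (SE 0.338, adjusted p = 0.00521, 0.0179 and 0.00872). Ccn2, a matricellular protein, fell in both high fat groups and differed by 0.84 in VAD_VAD minus LF_LF (adjusted p = 0.508). Without LF_HF replicate 1, more genes of the list fell in LF_HF, VAD_VAD and BD_HF minus LF_LF, while calls over all genes rose too. The rise in calls was therefore not particular to the list's genes. With each array centred on its median, 0 of these genes passed in VAD_VAD or BD_HF minus LF_LF, where Col1a1 had adjusted p-values of 0.087 and 0.0615.

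Of 7 measured genes on the list of BMP responsive genes, 1 was called, in 1 comparison. Whether this gene itself responds to BMP signalling in these livers was not tested. Hamp2, a mouse paralog of the hepcidin gene, read 4.999 and 6.146 in BD_HF, 2.51 and 3.19 in LF_HF and 5.56 and 5.09 in VAD_VAD, against 1.89 and 2.78 in LF_LF. It rose by 3.24 in BD_HF minus LF_LF (SE 0.518, adjusted p = 0.0344) and differed by 2.99 in VAD_VAD minus LF_LF (adjusted p = 0.0644). Hamp, similar in sequence, differed by −1.66 and −0.19 in these comparisons (adjusted p = 0.364 and 0.937). Since the probes can share signal, which of the pair is named is uncertain. With each array centred on its median the adjusted p of Hamp2 in BD_HF minus LF_LF was 0.207. None of the other ligands (8 measured of 14 listed), other receptors and co-receptors (6 of 9), other antagonists (13 of 18), latency and activation genes (12 of 15) and other intracellular components (18 of 18) was called in any comparison.

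In 3 marker lists, of stellate cells, recruited macrophages and bile duct cells, summed signals were highest on the LF_LF arrays, while most of the single stellate and bile duct markers did not pass the test. The summed signal of 9 stellate cell markers, as log2 relative to the array's percentile, came to 4.39 and 4.91 for BD_HF, 4.08 and 3.86 for LF_HF and 4.69 and 4.32 for VAD_VAD, against 5.05 and 5.03 for LF_LF. Colec11, which was not called, read 4.188 and 4.205 in LF_LF and is the largest part of that sum. In BD_HF minus LF_LF, 8 of the 10 stellate markers were lower and 2 higher, with a median difference of −0.475. Of the 10 stellate markers, 1 fell in LF_HF, 2 in VAD_VAD and 1 in BD_HF, each against LF_LF: Pdgfrb fell by 2.52, 2.39 and 2.23 (adjusted p = 0.0165, 0.0403 and 0.0283), and Ngfr fell by 2.66 in VAD_VAD (adjusted p = 0.0352). The 6 recruited macrophage markers summed to 3.68 and 3.64 in BD_HF, 3.17 and 2.91 in LF_HF and 4.03 and 4.33 in VAD_VAD, against 5.065 and 5.005 in LF_LF. Of these, 4 were called lower in BD_HF (Trem2, Cd9, Itgax and Gpnmb), 3 in LF_HF (Trem2, Cd9 and Itgax) and 1 in VAD_VAD (Trem2). Gpnmb was not well above background on either BD_HF array and was at least 45-fold lower there than in LF_LF. Its adjusted p of 0.0498 belongs to the measured difference of −7.81 and does not test the bound. Gpnmb passed the filter through LF_LF alone, so its call adds nothing to the other 3. The 4 summed bile duct markers lay at 2.38 to 3.02 in BD_HF, 2.31 to 2.52 in LF_HF and 2.50 to 2.62 in VAD_VAD, against 3.78 and 4.33 in LF_LF. Spp1 alone read 3.52 and 4.15 in LF_LF, so that sum is mostly this gene. Krt7 and Krt19 were also highest on the LF_LF arrays, while Sox9 was highest on LF_HF replicate 2 and Epcam on LF_HF replicate 1. Krt19, from 1 LF_HF array, and Spp1 fell in LF_HF minus LF_LF (adjusted p = 0.0467 and 0.0411). Krt19 had no value on LF_HF replicate 1, so its fall could not change when that array was left out. For Pdgfrb, Trem2, Cd9, Itgax and Spp1, LF_HF replicate 2 also lay below both LF_LF arrays. The LF_LF arrays enter every call of a member, and the part of these cells in the members' differences was not tested.

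The other marker lists did not follow that order. The 9 sinusoidal endothelial markers summed to 5.79 and 6.08 in BD_HF, 4.87 and 4.08 in LF_HF and 5.75 and 6.07 in VAD_VAD, against 5.27 and 5.30 in LF_LF, with 0 called. Kupffer cell markers summed to between 5.45 and 6.36 over the 8 arrays, and 1 of 7, Timd4, rose in BD_HF minus LF_LF (adjusted p = 0.0485). Neutrophil markers were highest in VAD_VAD, at 4.24 and 4.67, against 2.21 and 2.14 in LF_LF, with 0 called. Lymphocyte sums lay between −0.10 and 0.78 and pancreatic acinar sums between −0.21 and 1.72, with 0 called in either list. The erythroid sum over 2 genes lay between 5.92 and 8.36. Cftr, Camp, Elane, Cpa1 and Pnlip did not pass the filter on dim probes.

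**Figure D5:**
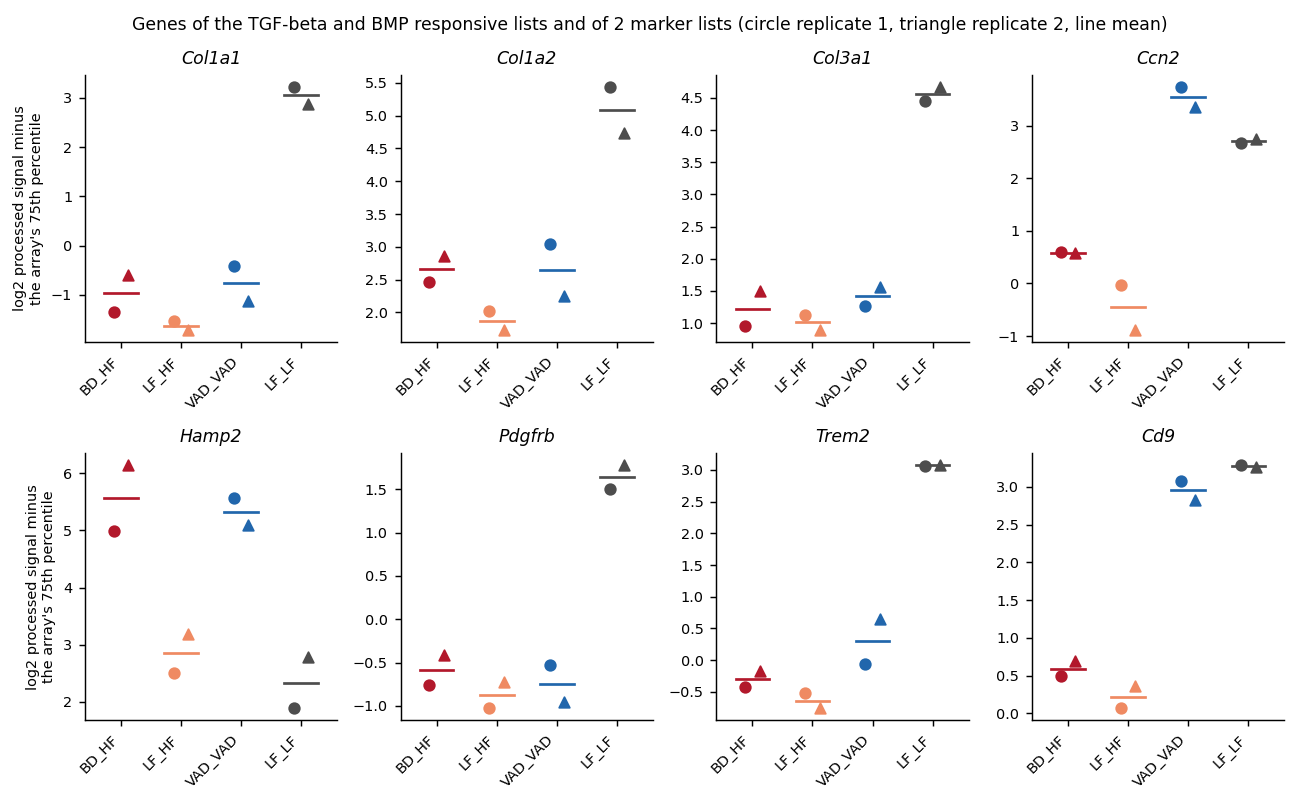
Log2 processed signal minus the array's 75th percentile for 4 TGF-beta responsive genes (Col1a1, Col1a2, Col3a1 and Ccn2), Hamp2 from the BMP responsive list, the stellate cell marker Pdgfrb and the recruited macrophage markers Trem2 and Cd9, with a circle for replicate 1, a triangle for replicate 2 and a line for the mean of 2 arrays. The LF_LF pair is the highest in Col1a1, Col1a2, Col3a1, Pdgfrb and Trem2, while in Ccn2 the VAD_VAD pair, at 3.74 and 3.35, lies above it.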

How the data were processed

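Total liver RNA was labelled with Cy3 and hybridised to single-colour Agilent arrays of design 014868, per the labels and the file headers. The scanner software was Agilent Feature Extraction, version 10.7.3.1, and probe positions are in mm9, per the file headers. Each deposited file gives a processed signal intensity on a linear scale that this software had detrended and corrected for background, per the file headers. A deposited table of the whole series repeats these intensity values in rounded form, without log2 or centring. Its medians per array were, for BD_HF, 23.9 and 17.7; for LF_HF, 178 and 15.7; for VAD_VAD, 23.7 and 17.9; and for LF_LF, 27.9 and 26.35. Any scaling between arrays by the authors is unknown here.

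Here log2 values of that intensity were taken, outlier-flagged spots were left out, spots of a probe were averaged and the array's 75th percentile was subtracted. A probe was kept when both arrays of some group read it well above background (26224 of 41174), and the probe with the highest mean stood for a gene. Members were matched by the array's gene name, and other genes by current symbol through a GRCm38.p6 gene list where the accession matched (28223 probes). Groups were compared with limma 3.58.1 in R 4.3.3 (lmFit and eBayes, 8 arrays, 4 residual and 3.42 prior degrees of freedom), which was also tested on simulated data. Other tools were the R package data.table (1.17.8), Python 3.11.15, pandas 2.3.3, numpy 2.4.6 and matplotlib 3.10.9. Of the alternatives in the closing section, 1 (the count of members with LF_LF apart, without LF_HF replicate 1) was chosen after seeing the data.

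Replicate numbers pair the arrays: all replicate 1 arrays lay on 1 slide and all replicate 2 arrays on another, per the file headers, so slide and replicate block are the same fit. Deviations of arrays on the same slide correlated at 0.0994 to 0.304 between groups. The number of arrays limits the precision.

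The members, the lists, the comparisons and the alternatives were chosen with earlier results of these data known. Described in full are members called in a comparison or among its 5 largest absolute differences. From the pathway and marker lists, called genes are named.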

Additional observations from a re-analysis of the deposited data

How the results depend on the processing

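The called differences of the 5 members kept their sign under every alternative run on them, but the calls did not hold under all. Members called in LF_HF, VAD_VAD and BD_HF minus LF_LF numbered 4, 1 and 3; they were 10, 4 and 6 with normexp background, 7, 3 and 6 with a trended, robust prior, 0, 5 and 12 with array weights, and 0, 0 and 0 with no filter on dim probes, a larger set of genes tested. They were 2, 1 and 1 with each array centred on its median, 2, 1 and 2 with the mean of a gene's probes, and 5, 3 and 4 among probes well above background on all 8 arrays. With the replicate number, which is also the slide, as a block, they were 3, 1 and 4: Gdf10 in LF_HF minus LF_LF was lost (adjusted p = 0.0553) and Tgfb2 in BD_HF minus LF_LF gained (adjusted p = 0.049), and the block changed no other call of a member. Leaving out 1 array gave 0 to 13 members in LF_HF minus LF_LF, 0 to 4 in VAD_VAD minus LF_LF, 0 to 7 in BD_HF minus LF_LF and 0 to 5 in BD_HF minus LF_HF, the 5 without LF_HF replicate 2; the lone array of a group is then assumed to vary like the others. In BD_HF minus LF_HF, differences that were not called changed sign: Acvrl1 to −0.18 with normexp background and −0.917 with outlier spots kept, and Bmp8b to 0.003 and Tgfbr3 to 0.587 with quantile normalization. The cause was not tested.

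Genes called in LF_HF, VAD_VAD and BD_HF minus LF_LF numbered 432, 99 and 262, against 2534, 380 and 731 with normexp background, 892, 102 and 338 with quantile normalization, 140, 34 and 57 with median centring, 807, 299 and 610 with the trended prior, 20, 1172 and 2799 with array weights, 355, 57 and 244 with the replicate block, 603, 159 and 319 above background on all arrays, 291, 51 and 148 with outlier spots kept, 288, 67 and 164 with the mean of probes and 32, 0 and 0 with no filter. Leaving out 1 array gave 0 to 4220, 0 to 921 and 0 to 1586, and 0 to 3034 in BD_HF minus LF_HF, where 1 gene was called. Higher and lower calls were 107 and 325 in LF_HF minus LF_LF, against 1455 and 1079 with normexp background and 14 and 126 with median centring. They were 16 and 83 in VAD_VAD minus LF_LF, against 104 and 276 with normexp background. Median centring moved the median of all genes to 0.98 in BD_HF minus LF_HF and −0.77 in LF_HF minus LF_LF.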
